A study of Rosa hybrid cultivar with 39 samples.

Results

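The auxin 2,4-D was compared with water in petals of the cut rose 'Samantha', through the condition averages of 6 of the 39 samples of the series, 3 held in 2,4-D and 3 in H2O. 2,4-D (2,4-dichlorophenoxyacetic acid) is a synthetic auxin, and auxins are plant hormones of growth, organ formation and shedding. Flowers of this red hybrid tea cultivar were cut at opening stage 2, several flowers were pooled for each replicate, their stems stood for 24 h in 100 µM 2,4-D or in deionized water (H2O), and RNA was taken from the outer petals. The whole series holds 13 conditions, of which NAA, 6-BA, ABA and SA were given at 100 µM, GA3 and AgNO3 at 80 µM, JA at 50 µM, BR (2,4-epibrassinolide) at 5 µM and the others as gases. In the labels no sample carries a genotype other than the cultivar. The control vase held deionized water alone. The comparison with it therefore does not separate the auxin action of 2,4-D from other effects of the compound at this dose.

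Auxin enters the nucleus and joins receptors of the TIR1/AFB family to Aux/IAA repressor proteins, which are then broken down and release the auxin response factors that bind the promoters of target genes. 2,4-D acts through the same receptors, but plants inactivate it and carry it out of the cell more slowly than the natural hormone, and at high doses it serves as a herbicide. NAA (1-naphthaleneacetic acid) is a different synthetic auxin, which leaves the cell more readily by efflux carriers. In petals, auxins are known for effects on expansion, on the shedding of the organ and on its sensitivity to ethylene.

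The values are average FPKM, which are fragment counts corrected for transcript length and library size, with 1 average per transcript and condition. The spread between the 3 replicates of a condition is not in these averages, so no difference could be tested and every value below is a description. The study lists the reads of each library, but the averages carry no counts per transcript, so the number of reads behind a single value is unknown. There are 38170 transcripts under 30208 identifiers, and FPKM were added up over the transcripts of each gene. The 13724 genes with at least 1 FPKM in 2,4-D or in H2O were compared by the log2 ratio of FPKM plus 1, 2,4-D over H2O, a scale that understates the change of genes with low values. No gene names go with the identifiers in the data, so the petal and pigment markers, the auxin response families and every other list planned by gene name could not be read, and the tissue label could not be checked against markers. For the same reason few genes are named.

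The 2,4-D average lay close to the H2O average, and the genes that differed were mostly higher in 2,4-D. The log2 ratio had a median of 0.04, 5th and 95th percentiles of -0.48 and 0.70, and stayed within 0.5 for 11900 genes, 86.7% of those compared. At a ratio of at least 2-fold, 295 genes were higher in 2,4-D, which is 2.15% of the genes compared, and 78 were lower, which is 0.568%. The higher genes thus made up 79.1% of the 373 genes apart. At least 4-fold, 27 genes were higher and 2 lower, and at least 8-fold 2 were higher and none lower. Just inside the threshold the log2 ratios were 1.0018 and -1.0111, and just outside 0.9993 and -0.999998.

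**Figure D1:**
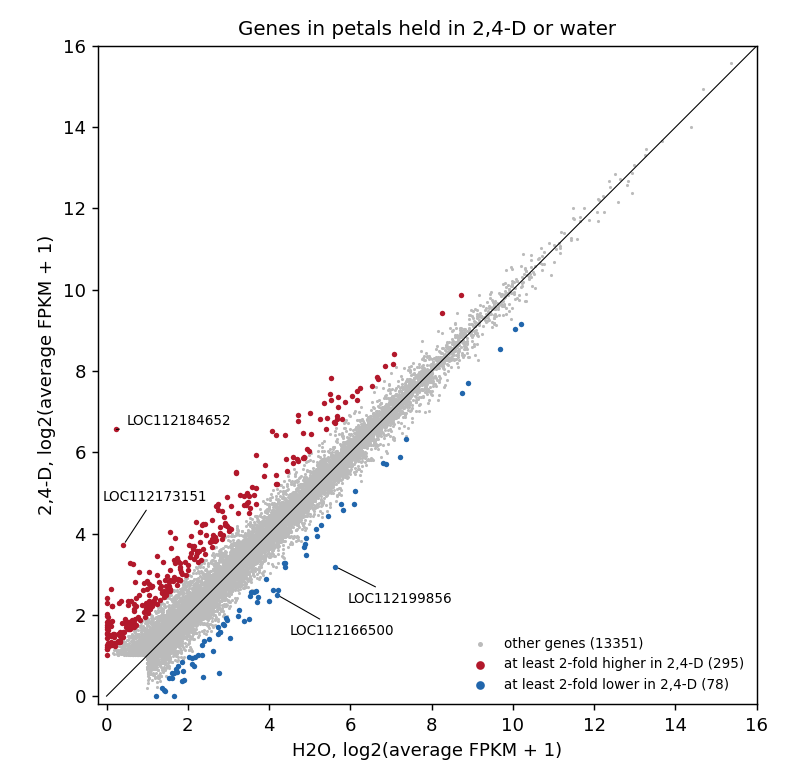
Each point is 1 of the 13724 genes compared, with log2(average FPKM + 1) in H2O on the x axis and in 2,4-D on the y axis. The line marks equal values. Red points are the 295 genes at least 2-fold higher in 2,4-D and blue points the 78 lower, and the 2 named genes of each direction are marked. Of the 110 genes that reached 1000 FPKM in either condition, 2 are lower and none is higher. Over all genes compared the shares are 0.568% lower and 2.15% higher, and counts this small are a description only.

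Most of the higher genes were weakly expressed in water, which their choice by the ratio to H2O favours. Of the 295 higher genes, 101 were under 1 FPKM in H2O, and 123 reached 10 FPKM in 2,4-D. The median of the higher genes was 6.91 FPKM in 2,4-D and 1.95 FPKM in H2O, against medians of 10.03 FPKM in 2,4-D and 9.73 FPKM in H2O over all genes compared. The 78 lower genes had a median of 2.75 FPKM in 2,4-D and 8.52 FPKM in H2O. Both sets together were a small part of the petal transcriptome. The higher genes held 1.05% of the summed FPKM in 2,4-D and 0.395% in H2O, and the lower genes 0.265% in 2,4-D and 0.606% in H2O.

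By level in water, the share of higher genes was 16.03% under 1 FPKM, 2.26% from 1 to 5, 1.29% from 5 to 20, 1.16% from 20 to 100 and 0.421% from 100 upward. A gene under 1 FPKM in H2O entered the comparison only if it reached 1 FPKM in 2,4-D, so in that class higher genes were favoured and none could be lower. From 1 FPKM upward the share of lower genes was between 0.397% and 0.705%. In the class of 100 FPKM and over, 6 genes were higher and 9 lower, the only class in which the lower genes were the more numerous.

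**Figure D2:**
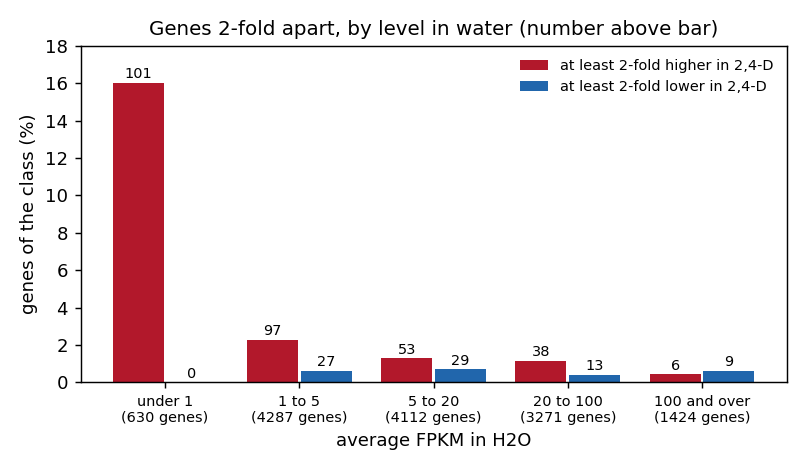
Bars give the percentage of genes at least 2-fold higher (red) or lower (blue) in 2,4-D than in H2O, in 5 classes of average FPKM in H2O on the x axis, with the number of genes above each bar. The share of higher genes is 16.03% in the lowest class and 0.421% in the highest.

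The most abundant genes of the petal differed little between the averages. The 10 genes with the highest FPKM in H2O held 17.2% of the summed FPKM in 2,4-D and 17.1% in H2O, with log2 ratios between -0.55 and 0.25. LOC112199140, on NC_037091.1 from 32868861 to 32870605 in the genome RchiOBHm-V2, was the most abundant gene in H2O, with 48584 FPKM in 2,4-D and 42339 FPKM in H2O. Its log2 ratio was 0.20, although the difference of 6246 FPKM was the largest of any gene. The 5 largest increases in FPKM all belonged to genes with log2 ratios between 0.19 and 0.54 and the 5 largest decreases to genes between -0.55 and -0.22, and none of these 10 was 2-fold apart.

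The largest ratio was that of LOC112184652 (NC_037089.1, 59671218 to 59763525), with 93.4 FPKM in 2,4-D and 0.185 FPKM in H2O, a log2 ratio of 6.32. Its level was split across the other treatments in solution. It was at 32.0 FPKM in NAA, 53.7 FPKM in JA and 17.8 FPKM in ABA, but at 0.557 FPKM in 6-BA, 0.199 FPKM in SA and listed at 0 in BR, GA3 and AgNO3. Thus 2,4-D held the highest of the 10 averages in solution, and the direct log2 ratio of 2,4-D was 1.52 over NAA and 0.79 over JA. In air (ET-CK), the gas control without a hormone, the gene was at 12.6 FPKM, and in 1-MCP at 8.69 FPKM. The deposited locus spans 92308 bases and carries 4 other identifiers, of which 3 are listed at 0 in all 12 conditions used. The other one was at 257 FPKM in 2,4-D and 176 FPKM in H2O, and how reads of this locus were divided among its genes was not tested.

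LOC112173151, on NC_037093.1 from 59447534 to 59451643, came second, with 12.1 FPKM in 2,4-D and 0.329 FPKM in H2O, a log2 ratio of 3.30. It is alone at its locus and has 1 transcript. The gene was near 0 in NAA, at 0.0456 FPKM, in 6-BA, at 0.00387 FPKM, and in ABA, at 0.00324 FPKM. Its average was as high as in 2,4-D, or nearly so, in SA at 14.2 FPKM, in AgNO3 at 11.5 FPKM and in JA at 9.57 FPKM. In air it was at 7.08 FPKM and in 1-MCP at 5.94 FPKM, both well above water. So the 2 genes with the largest ratios to water differed in which other treatments shared their high level, with JA among them for both.

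LOC112199856, on NC_037091.1 from 49286866 to 49361273, had the lowest ratio, with 8.12 FPKM in 2,4-D and 48.4 FPKM in H2O, a log2 ratio of -2.44. H2O was the highest of the 10 averages in solution for this gene, NAA was at 20.1 FPKM and JA at 24.2 FPKM, and the other treatments in solution were between 0.280 FPKM in BR and 6.04 FPKM in 6-BA. Air was above H2O, at 56.6 FPKM, and 1-MCP was at 2.23 FPKM. Its locus holds 7 other identifiers. One of them went the opposite way, with 225 FPKM in 2,4-D and 45.0 FPKM in H2O, a log2 ratio of 2.29, while the other 6 had ratios between -0.03 and 0.57. A lower and a higher gene therefore lie in 1 deposited locus of 74408 bases, and whether reads were exchanged between them was not tested.

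LOC112166500, on NC_037092.1 from 36677055 to 36688584, was second among the lower genes of at least 10 FPKM, with 4.63 FPKM in 2,4-D and 17.3 FPKM in H2O, a log2 ratio of -1.70. On the scale of FPKM plus 1, it was the single gene at least 2-fold lower in 2,4-D than in each of the 9 other averages in solution. These ran from 12.6 FPKM in GA3 and 14.1 FPKM in BR to 28.0 FPKM in 6-BA and 67.0 FPKM in ABA, with 23.2 FPKM in NAA. In air and 1-MCP the gene was at 19.6 and 21.5 FPKM. The gene that shares its locus had the same extremes, with 374 FPKM in 2,4-D, the lowest of the 10, 3073 FPKM in ABA, the highest, and 817 FPKM in H2O. Its log2 ratio of 2,4-D over H2O was -1.12. It was far more abundant than LOC112166500, and how reads of this locus were divided between them was not tested.

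**Figure D3:**
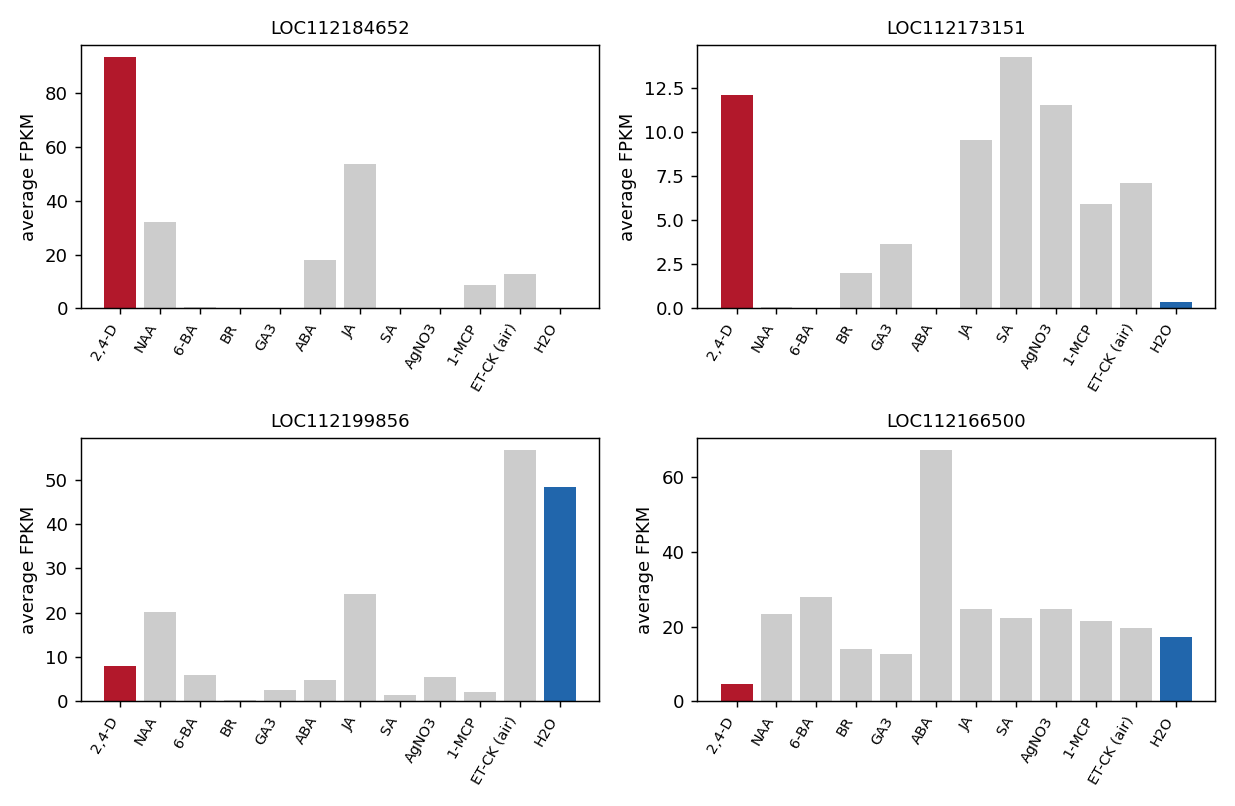
Each panel shows 1 named gene, with the average FPKM on the y axis and the 12 conditions used on the x axis, 2,4-D in red, H2O in blue and the others in grey, without error bars because each bar is 1 deposited average. LOC112184652 stands at 93.4 in 2,4-D and 0.185 in H2O, and LOC112166500 at 4.63 in 2,4-D and 17.3 in H2O.

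In the other direction, 1 gene was at least 2-fold higher in 2,4-D than in each of the 9 other averages in solution, on the same scale. LOC112178284, on NC_037094.1 from 59055475 to 59558621, was at 1.03 FPKM in 2,4-D and is listed at 0 in the other 9, as well as in 1-MCP and air. It entered the comparison through its 2,4-D average alone, just above the minimum, and 22 other identifiers share its locus. The gene was singled out after its values were seen. These counts depend on the pseudocount, and with 0.1 in place of 1 they were 4 genes above and 6 below all other averages in solution.

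The next genes in rank varied widely in level, and are given by their medians. The 13 higher genes of ranks 3 to 15 among those of at least 10 FPKM had log2 ratios between 2.02 and 2.49. Their median was 59.9 FPKM in 2,4-D and 11.7 FPKM in H2O, and among the other treatments it was 117 FPKM in JA, 78.6 in GA3, 75.1 in AgNO3, 32.8 in BR, 31.7 in SA, 28.3 in 6-BA, 16.5 in ABA and 14.0 in NAA. Single genes departed from this order, and in ABA they ran from 0.00154 to 198 FPKM. The 8 lower genes of ranks 3 to 10 had log2 ratios between -1.67 and -1.36, with a median of 5.11 FPKM in 2,4-D and 16.9 FPKM in H2O. Here the median was 15.3 FPKM in NAA, 15.5 in 6-BA and 15.3 in ABA, and between 2.73 FPKM in BR and 6.55 FPKM in AgNO3 in the other 5 treatments. In both sets the medians in NAA, 6-BA and ABA lay nearer to water, and those in JA, GA3 and AgNO3 nearer to 2,4-D or beyond it.

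Over the full set of 295 higher genes, the medians again were highest in AgNO3, GA3 and JA, and that of ABA was the nearest to water. They were 10.7 FPKM in AgNO3, 10.6 in GA3, 10.5 in JA, 9.09 in SA, 6.91 in 2,4-D, 6.09 in BR, 4.87 in NAA, 3.69 in 6-BA, 2.62 in ABA and 1.95 in H2O. Air (ET-CK), a control without a hormone, had a median of 6.68 FPKM, close to that of 2,4-D, and 1-MCP 6.32 FPKM. All these comparisons with water share the H2O average, and the genes were chosen by it and by the 2,4-D average. In the 78 lower genes the medians were 2.75 FPKM in 2,4-D, 2.78 in BR, 3.09 in GA3, 3.74 in JA, 4.96 in AgNO3, 5.37 in SA, 7.01 in ABA, 7.90 in 6-BA, 8.03 in NAA and 8.52 in H2O. Air and 1-MCP lay between 2,4-D and H2O, at 5.30 and 5.37 FPKM. For all genes compared, the medians in these conditions lay between 9.73 and 11.0 FPKM.

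**Figure D4:**
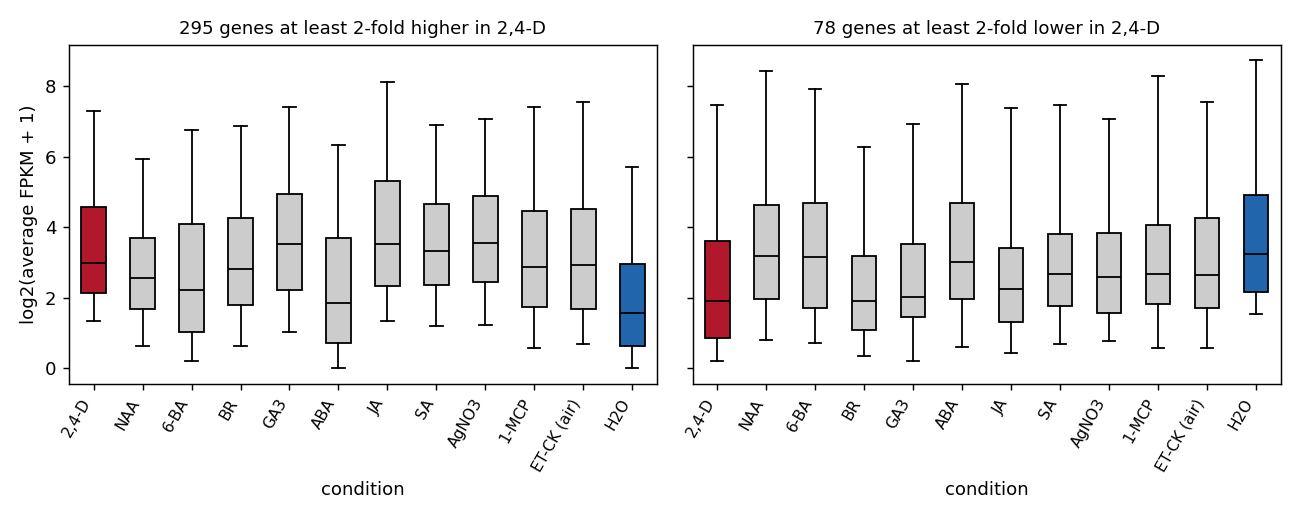
Boxes show log2(average FPKM + 1) of the 295 genes at least 2-fold higher (left) and the 78 at least 2-fold lower (right) in 2,4-D than in H2O, in the 12 conditions used. Lines mark medians, boxes the quartiles and whiskers the 5th and 95th percentiles over genes. The medians of the higher genes are 6.91 FPKM in 2,4-D, 10.5 in JA, 2.62 in ABA and 1.95 in H2O.

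The values of the 8 other treatments in solution did not enter the choice of genes, and JA was the one most often the highest of the 8 for the 295 higher genes. It was the highest for 105 of them, or 35.6%, against 8.09% of all genes compared. SA was the highest for 58, or 19.7%, against 11.4%, AgNO3 for 50, or 16.9%, against 9.95%, and GA3 for 23, or 7.80%, against 6.80%. For the other 4 the share was below that over all genes. BR was the highest for 32, or 10.8%, against 20.7%, 6-BA for 11, or 3.73%, against 8.54%, ABA for 10, or 3.39%, against 28.2%, and NAA for 5, or 1.69%, against 6.32%. ABA was the lowest of the 8 for 124 genes, or 42.0%, against 27.2%, BR for 66, or 22.4%, against 18.1%, and NAA for 51, or 17.3%, against 5.79%. 6-BA was the lowest for 34, or 11.5%, against 13.4%, SA for 9, or 3.05%, against 12.7%, and GA3 for 6, or 2.03%, against 6.24%. JA and AgNO3 were the lowest for 1 gene each, against 8.14% of all genes compared in JA and 8.33% in AgNO3.

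For the 78 lower genes, ABA was the highest of the 8 for 25, or 32.1%, against 28.2%, 6-BA for 16, or 20.5%, against 8.54%, and NAA for 15, or 19.2%, against 6.32%. BR, SA and GA3 were each the highest for 4 genes, or 5.13%, against 20.7%, 11.4% and 6.80%. JA and AgNO3 were each the highest for 5, or 6.41%, against 8.09% and 9.95%. BR was the lowest for 28, or 35.9%, against 18.1%, GA3 for 18, or 23.1%, against 6.24%, and JA for 10, or 12.8%, against 8.14%. ABA was the lowest for 7, or 8.97%, against 27.2%, and 6-BA for 6, or 7.69%, against 13.4%. SA and AgNO3 were each the lowest for 3, or 3.85%, against 12.7% and 8.33%, and NAA for 2, or 2.56%, against 5.79%.

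2,4-D was the highest of the 10 averages in solution for 24 of the 295 higher genes, or 8.14%, against 4.55% of all genes compared, and H2O the lowest for 126, or 42.7%, against 9.82%. For the 78 lower genes, 2,4-D was the lowest of the 10 for 24, or 30.8%, against 4.89%, and H2O the highest for 26, or 33.3%, against 7.26%. The genes were chosen by these 2 averages, which favours such places, so the counts are a description from which nothing is read.

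Set directly against the other averages, without H2O, 2,4-D lay nearest to 6-BA, with 321 genes at least 2-fold apart (2.34% of those compared), and to NAA, with 333 (2.38%). Next came H2O with 373 (2.72%), JA with 407 (2.93%), GA3 with 502 (3.59%), AgNO3 with 654 (4.62%) and SA with 676 (4.77%). ABA, at 1219 genes (8.75%), and BR, at 1279 (9.09%), were the farthest in solution. The gas conditions were farther still, 1-MCP at 1435 (10.1%) and air (ET-CK) at 2037 (14.2%).

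NAA is the closest counterpart of 2,4-D in the series, an auxin at the same dose and time. The higher genes included 96 that were also at least 2-fold higher in 2,4-D than in NAA, 32.5% of the 295, against 1.40% of all genes compared, and none that was 2-fold lower, against 0.904%. Of the 78 lower genes, 42 or 53.8% were at least 2-fold lower in 2,4-D than in NAA, against 0.904% of all genes compared. None was 2-fold higher, against 1.40%. Against ABA the corresponding share of the higher genes was larger, 170 or 57.6%, beside 4.90% of all genes. For the lower genes it was 42 or 53.8%, as against NAA, beside 3.48% of all genes, and 1 was 2-fold higher. Against JA the share of the higher genes was 8 genes or 2.71%, beside 1.06%, and 68 of them were at least 2-fold lower in 2,4-D than in JA, beside 1.62%. The 2,4-D average entered both the choice of the genes and these counts, which are given as a description.

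Transcripts mattered for some genes whose sum hid a difference. Of the genes compared, 3001 list several transcripts, among them 53 of the 295 higher and 5 of the 78 lower genes, or 17.97% and 6.41% against 21.9% of all. Taken singly, 466 of 15044 transcripts (3.10%) were higher in 2,4-D by at least 2-fold and 152 (1.01%) were lower. In 234 genes that were not 2-fold apart in sum, at least 1 transcript was, and 13 genes held transcripts apart in both directions. In only 1 of these 13 did both transcripts reach 10 FPKM in their higher condition.

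That gene, LOC112186386, on NC_037089.1 from 82506594 to 82535587, was noticed after its values were seen. Its first listed transcript was at 41.3 FPKM in 2,4-D and 126 FPKM in H2O, a log2 ratio of -1.59, and its second at 172 FPKM in 2,4-D and 57.1 FPKM in H2O, a log2 ratio of 1.58. The sum was 214 FPKM in 2,4-D and 183 FPKM in H2O, a log2 ratio of 0.22. The first transcript thus made up 19.3% of the gene in 2,4-D and 68.8% in H2O. Its share was also low in AgNO3, at 12.9%, in SA, at 19.0%, in GA3, at 27.4%, in NAA, at 28.3%, and in ABA, at 35.3%, and high in 6-BA, at 87.2%, and BR, at 63.0%. In JA it was 54.7%. In air (ET-CK), a control without a hormone, the share was also low, at 28.5%, and in 1-MCP it was 57.0%. The locus carries 1 other identifier. Cuffdiff estimates the division of reads between overlapping transcripts, and the error of that estimate is not in the averages.

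**Figure D5:**
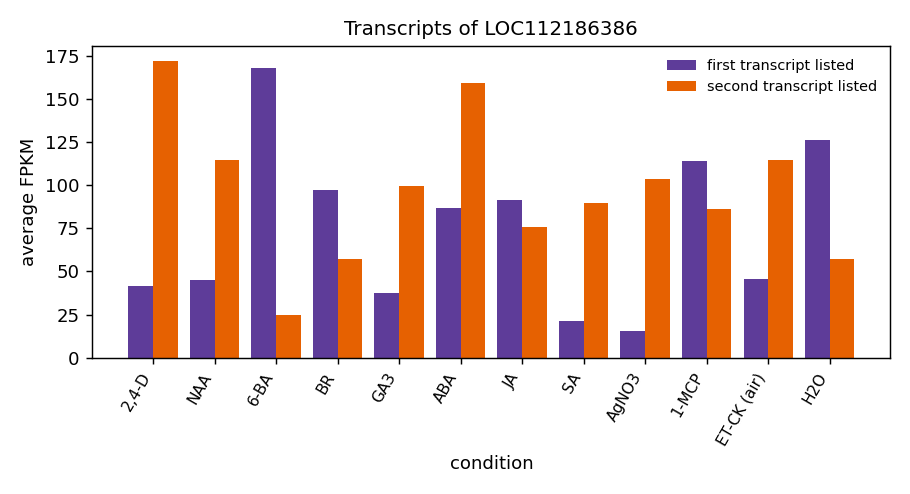
Bars give the average FPKM of the first (purple) and second (orange) listed transcript of LOC112186386 in the 12 conditions used. The first is at 41.3 in 2,4-D and 126 in H2O, the second at 172 in 2,4-D and 57.1 in H2O.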

How the data were processed

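The authors sequenced petal RNA of 39 samples, aligned it to the 'Old Blush' genome RchiOBHm-V2 using TopHat2, built a merged assembly (Cufflinks, Cuffmerge) and quantified it using Cuffdiff. They deposited FPKM as 1 average per transcript and condition. The sources used here do not say how conditions were scaled to each other. The values of ET equal those of air and were not used, which leaves 12 conditions. The authors' test on replicates could not be repeated on averages.

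Transcript FPKM were summed by identifier, of which 9 join neighbouring genes. A minimum of 1 FPKM in either condition and a pseudocount of 1 were used, and genes were called apart at 2-fold. The script was checked on data simulated from well-expressed genes with little noise. That check does not cover the low levels at which many genes were called. The rule for named genes took the 15 largest and 10 smallest ratios among genes of at least 10 FPKM and the 5 largest differences in FPKM each way. Because the identifiers have no names here, 2 genes per direction are printed, and lists by gene name, promoters and proteins could not be examined. The alternatives tried are given at the end. Members, lists and settings were chosen with earlier results of these data known. Python 3.11.15, numpy 2.4.6, pandas 2.3.3 and matplotlib 3.10.9 were used.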

Additional observations from a re-analysis of the deposited data

Results flagged for a closer look

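For 4 of the 7 genes named by identifier, the averages of the 2 synthetic auxins lay on opposite sides of the H2O average. These 7 genes were picked by rules that use the 2,4-D or H2O average, and the share over all genes was not counted. Among the genes that the authors called under both auxins, the paper reports a similar pattern for most. Those calls needed an absolute log2 change of at least 0.5 and a test on replicates. The 4 genes here met no such rule in NAA. Their log2 ratios of NAA over H2O were 0.40 for LOC112166500, -0.35 for LOC112173151, -0.24 for LOC112199140 and -0.20 for the sum of LOC112186386. They are therefore no counterpart of the paper's shared genes. LOC112166500 was at 4.63 FPKM in 2,4-D and 23.2 FPKM in NAA, with 17.3 FPKM in H2O, a log2 ratio of 2,4-D over NAA of -2.11. LOC112173151 was at 12.1 FPKM in 2,4-D and 0.0456 FPKM in NAA, with 0.329 FPKM in H2O, a log2 ratio of 2,4-D over NAA of 3.65. Its NAA and H2O averages are both under 1 FPKM, so that side rests on very low values. LOC112199140 was at 48584 FPKM in 2,4-D and 35884 FPKM in NAA, with 42339 FPKM in H2O, a log2 ratio of 2,4-D over NAA of 0.44. The sum of LOC112186386 was 214 FPKM in 2,4-D and 160 FPKM in NAA, with 183 FPKM in H2O, a log2 ratio of 2,4-D over NAA of 0.42. NAA was not 2-fold apart from H2O for any of the 4, and for LOC112199140 and that sum 2,4-D was not either. The ratios to water share the H2O average, each value is 1 average, and no difference was tested.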

How the results depend on the processing

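With a pseudocount of 0.1 in place of 1, the genes at least 2-fold higher numbered 598 and the lower 196, in place of 295 and 78. A minimum of 5 FPKM left 180 higher and 51 lower genes among 9226 compared, a log2 ratio of at least 0.5 gave 1225 and 599, and transcripts without summing 466 and 152. In each setting run the higher genes outnumbered the lower, with a share of the genes apart between 67.2% at a log2 ratio of 0.5 and 80.3% among genes alone at their locus. That last setting was chosen after seeing the data and left 224 higher and 55 lower genes. Scaling by medians shifted the 2,4-D average by -0.04 on the log2 scale and gave 276 and 86, scaling by upper quartiles 274 and 87, and no minimum 295 and 78. All 16 recomputed ratios of the 2 genes named as highest and the 2 named as lowest kept their direction and stayed at least 2-fold. The widest ranges were 6.27 to 8.36 for LOC112184652 and 3.26 to 4.83 for LOC112173151.

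No paired analysis was possible because each condition is a single average, and leaving out replicates was not run for the same reason. The lists by gene name and the promoter motifs were not run, as no gene names or sequences were used here.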

Other observations

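The genes 2-fold apart were spread over the genome. On the 7 assembled chromosomes, the share of compared genes that were higher in 2,4-D ran from 1.78% on NC_037090.1 to 2.52% on NC_037088.1, and the share lower from 0.422% on NC_037093.1 to 0.799% on NC_037088.1. Close neighbours were called together more often than genes at large. Of the 589 nearest compared neighbours of the higher genes, 32 were themselves higher, or 5.43%, against 2.15% of all genes compared. Of the 155 neighbours of the lower genes, 12 were lower, or 7.74%, against 0.568%. Genes of 1 deposited locus can share reads, and without neighbours at the same locus the counts were 20 of 514, or 3.89%, for the higher genes and 8 of 135, or 5.93%, for the lower. A pair of neighbours counts from both sides here, so these counts are not independent, and no test was made of them.

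Sharing a locus with another identifier was more common among the genes apart, at 24.1% of the higher genes and 29.5% of the lower, against 16.8% of all genes compared.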
